A study of Homo sapiens with 26 samples.

Results

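The IFI and IFITM genes are interferon-induced genes that share a name stem but not one common ancestry: IFI6, IFI27, IFI35, IFI44, IFI44L, IFI16, IFITM1, IFITM2 and IFITM3. These 9 were chosen by name out of 26281 named genes of the assembled annotation, and they were chosen from gene families already known to stand out in the measured fold changes of these data. Their fold changes are therefore given as a description. The 9 genes fall into 7 loci, because the assembly joined IFI44 with IFI44L and IFITM1 with IFITM2 through unnamed transcripts that span both. Each pair therefore has 1 value wherever it is listed jointly. In the comparison with tagged ZBTB24, described below, IFI44 is listed alone.

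Interferons bound to their receptors activate the kinases JAK1 and TYK2 and transcription factors such as STAT2 and IRF9, which bind the interferon-stimulated response element of target promoters. The IFI and IFITM genes are among these targets, and many of them are used as readouts of interferon signalling in epithelial cells. IFITM proteins sit in the plasma and endosomal membranes and hinder the entry of enveloped viruses. IFI6 and IFI27 are small hydrophobic membrane proteins of one family, IFI16 is a sensor of DNA, and IFI35 is a leucine zipper protein that pairs with NMI.

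All libraries came from HCT116, a human colorectal cancer cell line, in which the study perturbed ZBTB24, a zinc finger protein, and DNMT3B, a de novo DNA methyltransferase, both mutated in ICF syndrome. RNA-seq covered 12 libraries in 6 groups. They were 3 with a hairpin against ZBTB24 (shZBTB24) and 3 with a non-targeting hairpin (shNT), 2 with FLAG-tagged ZBTB24 and 2 with the FLAG tag alone, and 1 DNMT3B knockout library and 1 wild-type library with no hairpin or tag. The hairpin and FLAG lines were made with lentivirus and puromycin, and the FLAG lines were single-cell clones, of which lines 5 and 11 gave the FLAG-ZBTB24 RNA. FLAG ChIP-seq covered 3 lines with FLAG-ZBTB24, 2 with FLAG-DNMT3B and 2 with the tag alone, each with its input.

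Each comparison came as 1 deposited table with 1 pooled FPKM value per group (fragments scaled to transcript length and library size), so no spread between libraries and no depth can be given. There were 1965 loci in the hairpin table, 1754 loci for FLAG and 2243 loci for the knockout, and a locus that is not listed may have been unchanged, filtered out or untested. ZBTB24, within a locus shared with MICAL1, was at 155 FPKM with FLAG-ZBTB24 and 17.8 FPKM with FLAG only in the authors' deposited table (q = 0.0192), and the hairpin table did not list it. Under the knockout label DNMT3B had no row. It appeared at 6.46 FPKM, against 21.1 FPKM in wild-type cells, under DNMT3BKOshZB, a label in the knockout table that matches no sample given here and under which no IFI or IFITM locus was listed. Every row under the knockout label was higher and every row under DNMT3BKOshZB lower than in wild-type cells, and the labels shared 0 loci. Whether they are one comparison split by direction cannot be told from the labels.

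The promoters of the members carried paired GAAA runs, which are shown first because the interferon-stimulated response element is built from them. RefSeq promoter windows (GRCh38.p14) of 300 bases, from 250 before to 50 after a transcript start, were matched by symbol for 8 of the 9 genes, all but IFITM2. The sequences below run 5′ to 3′ on the gene's strand, from upstream of the start to 5 bases past it. Capitals mark GAAANNGAAA or GAAANGAAA, read on either strand.
IFI6, chr1:27672188-27672357, minus strand: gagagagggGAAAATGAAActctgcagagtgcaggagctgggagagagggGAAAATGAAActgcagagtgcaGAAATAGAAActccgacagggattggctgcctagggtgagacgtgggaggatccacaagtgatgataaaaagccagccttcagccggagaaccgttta
IFI27, chr14:94110571-94110740, plus strand: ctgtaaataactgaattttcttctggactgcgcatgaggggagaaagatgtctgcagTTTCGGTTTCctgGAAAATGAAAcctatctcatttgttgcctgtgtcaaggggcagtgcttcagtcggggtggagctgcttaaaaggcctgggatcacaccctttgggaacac
IFI44, chr1:78649624-78649793, plus strand: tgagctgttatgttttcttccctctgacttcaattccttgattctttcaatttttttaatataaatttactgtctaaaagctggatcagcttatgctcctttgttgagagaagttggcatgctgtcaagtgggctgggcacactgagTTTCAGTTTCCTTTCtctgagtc
IFI44L, chr1:78620283-78620452, plus strand: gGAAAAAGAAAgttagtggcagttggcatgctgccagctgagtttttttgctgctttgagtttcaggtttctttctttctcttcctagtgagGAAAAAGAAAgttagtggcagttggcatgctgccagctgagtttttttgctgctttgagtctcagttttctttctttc
IFITM1, chr11:313875-314044, plus strand: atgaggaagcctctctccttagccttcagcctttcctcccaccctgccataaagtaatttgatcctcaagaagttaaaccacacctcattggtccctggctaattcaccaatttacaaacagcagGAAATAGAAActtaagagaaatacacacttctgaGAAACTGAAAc
IFITM3, chr11:320856-321025, minus strand: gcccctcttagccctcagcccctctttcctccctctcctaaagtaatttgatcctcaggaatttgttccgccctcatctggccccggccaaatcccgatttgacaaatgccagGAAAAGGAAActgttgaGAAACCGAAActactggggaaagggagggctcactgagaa
IFI16, chr1:159009742-159009911, plus strand: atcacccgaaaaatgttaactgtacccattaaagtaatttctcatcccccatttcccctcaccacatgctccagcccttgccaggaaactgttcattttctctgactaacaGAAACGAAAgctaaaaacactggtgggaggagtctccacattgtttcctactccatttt
IFI35, chr17:43006619-43006788, plus strand: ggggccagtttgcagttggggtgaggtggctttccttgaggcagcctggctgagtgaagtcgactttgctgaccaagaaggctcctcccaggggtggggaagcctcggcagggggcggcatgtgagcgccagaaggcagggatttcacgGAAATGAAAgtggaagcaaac

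GAAANNGAAA, with 2 bases between the runs, stood in the windows of 6 of the 8 genes (IFI6, IFI27, IFI44, IFI44L, IFITM1 and IFITM3), against 4.38% of all 27305 genes with a window. Among other interferon-stimulated genes it stood in 20 of 27 (74.1%). IFI6 held 3 copies, with first bases at -156, -115 and -93 from the start, and IFI44 held 1, on the opposite strand. IFI27 held 2 copies on opposite strands in the window shown, and IFI44L, IFITM1 and IFITM3 held 2 each on the gene's strand.

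The form with 1 base between the runs, GAAANGAAA, stood in the windows of IFI16, IFI35 and IFI44, against 3.87% of all genes and 12 of 27 other interferon-stimulated genes (44.4%). IFI44 was the gene among the 8 that held both forms, and they overlap there. Both motifs were searched on both strands and were chosen after the windows had been seen, and a match is a description of letters and not of binding. Of the 2 windows of IFI16, one held neither form.

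**Figure D1:**
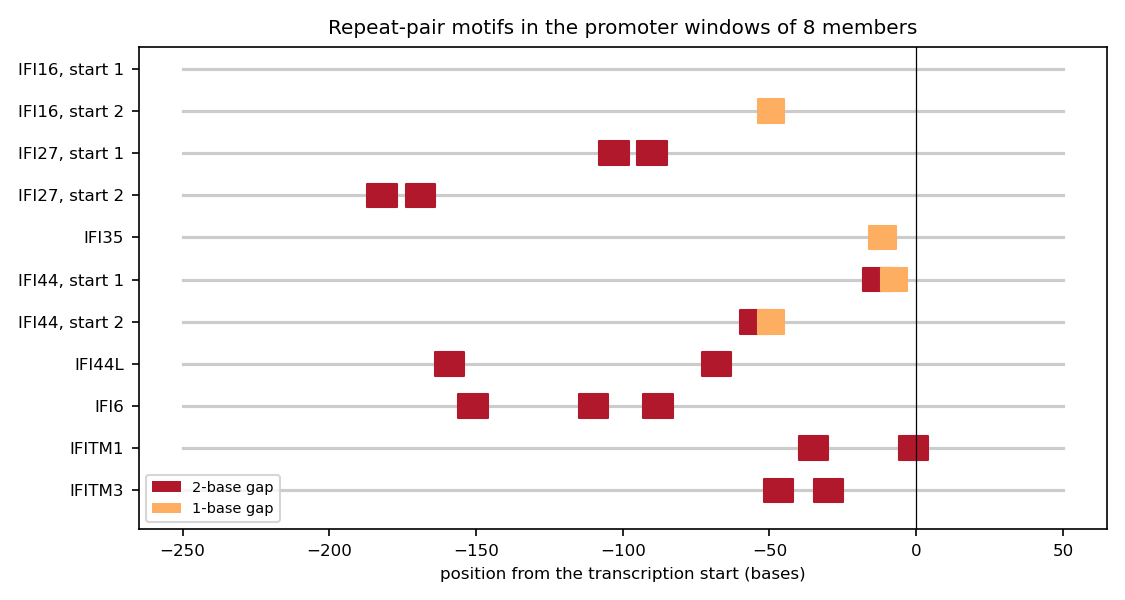
Positions of the 2 motif forms in the promoter windows of 8 members (rows; genes with more than 1 start have a row each), against the distance from the transcription start in bases. All but 1 block, at the start of IFITM1, lie wholly upstream, and IFI16 start 1 holds none.

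Some of these copies lie in repeated sequence. The IFI44L window held an exact repeat of 85 bases, offset by 91 bases, with a copy of the motif in each unit. IFI6 held an exact repeat of 29 bases, offset by 41 bases, which carries the first 2 of its 3 motif copies. IFITM1 and IFITM3, neighbouring paralogs, shared a run of 19 bases upstream of their motif copies, and IFI44 and IFI44L shared a run of 13 bases.

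The member windows were poor in CpG dinucleotides, the sites that DNMT3B can methylate. Their 11 windows held a median of 3 CpG (lowest 0, highest 9), against a median of 14 (quartiles 4 and 28) over the 35116 windows of all genes. IFI44 and IFI44L held 0, and IFI6 held the most. No methylation was measured here.

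With the hairpin against ZBTB24, 4 of the 7 member loci rose in the authors' deposited table: IFI44 with IFI44L, IFI6, IFI27 and IFI35. The rises were between 3.75-fold and 10.6-fold, and all 4 had the smallest q of the table (0.00493). Many other listed loci, OAS1, NMI and CDX2 among them, had that same q, so it does not set the 4 apart. The locus of IFITM1 and IFITM2 was also higher but missed the threshold of q under 0.05, and IFI16 and IFITM3 were not listed. The members were picked with this contrast known, so their count has no test. Beside it, 12.2% of the 1965 listed loci were higher with q under 0.05. No listed locus has p above 0.0549 or an absolute log2 fold change under 0.50, so this is not a share of all genes. In bulk RNA, more cells expressing a gene and more RNA per cell cannot be told apart.

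The locus of IFI44 and IFI44L, neighbouring relatives with antiviral roles (hg19 chr1:79086067-79129763), was at 31.1 FPKM in shZBTB24 cells and 2.94 FPKM in shNT cells in the authors' deposited table. Its log2 fold change of 3.40 was the 5th highest of the 1965 listed loci. Most of the joined locus's transcripts were unnamed, so the rise cannot be assigned to one gene of the pair.

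IFI6 (hg19 chr1:27992572-27998724, minus strand) was at 302 FPKM in shZBTB24 cells and 46 FPKM in shNT cells in the authors' deposited table, a log2 fold change of 2.71. IFI27 (hg19 chr14:94577079-94583036, plus strand), its relative, reached the same 302 FPKM in shZBTB24 cells, against 61.7 FPKM in shNT cells, a log2 fold change of 2.29 in the authors' deposited table. The 2 relatives thus had the same rounded level per length in shZBTB24 cells, while IFI27 was the higher in shNT cells, with no spread to judge that difference. In other controls they lay far apart. IFI6 and IFI27 were at 31.2 and 101 FPKM in FLAG-only cells, and at 8.34 and 0.521 FPKM in wild-type cells.

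IFI35 (hg19 chr17:41158742-41166476, plus strand) was at 40.3 FPKM in shZBTB24 cells and 10.8 FPKM in shNT cells in the authors' deposited table, a log2 fold change of 1.91. NMI, its binding partner, rose with it, to 4.33 FPKM in shZBTB24 cells against 1.38 FPKM in shNT cells (log2 fold change 1.65, q = 0.00493 in the authors' deposited table). The locus of IFITM1 and IFITM2 (hg19 chr11:307602-315272, plus strand) was at 338 FPKM in shZBTB24 cells and 195 FPKM in shNT cells. Its log2 fold change was 0.80, with p = 0.0017 and q = 0.0518 in the authors' deposited table. It held the highest level of the 5 listed member loci in both groups and the smallest fold change.

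**Figure D2:**
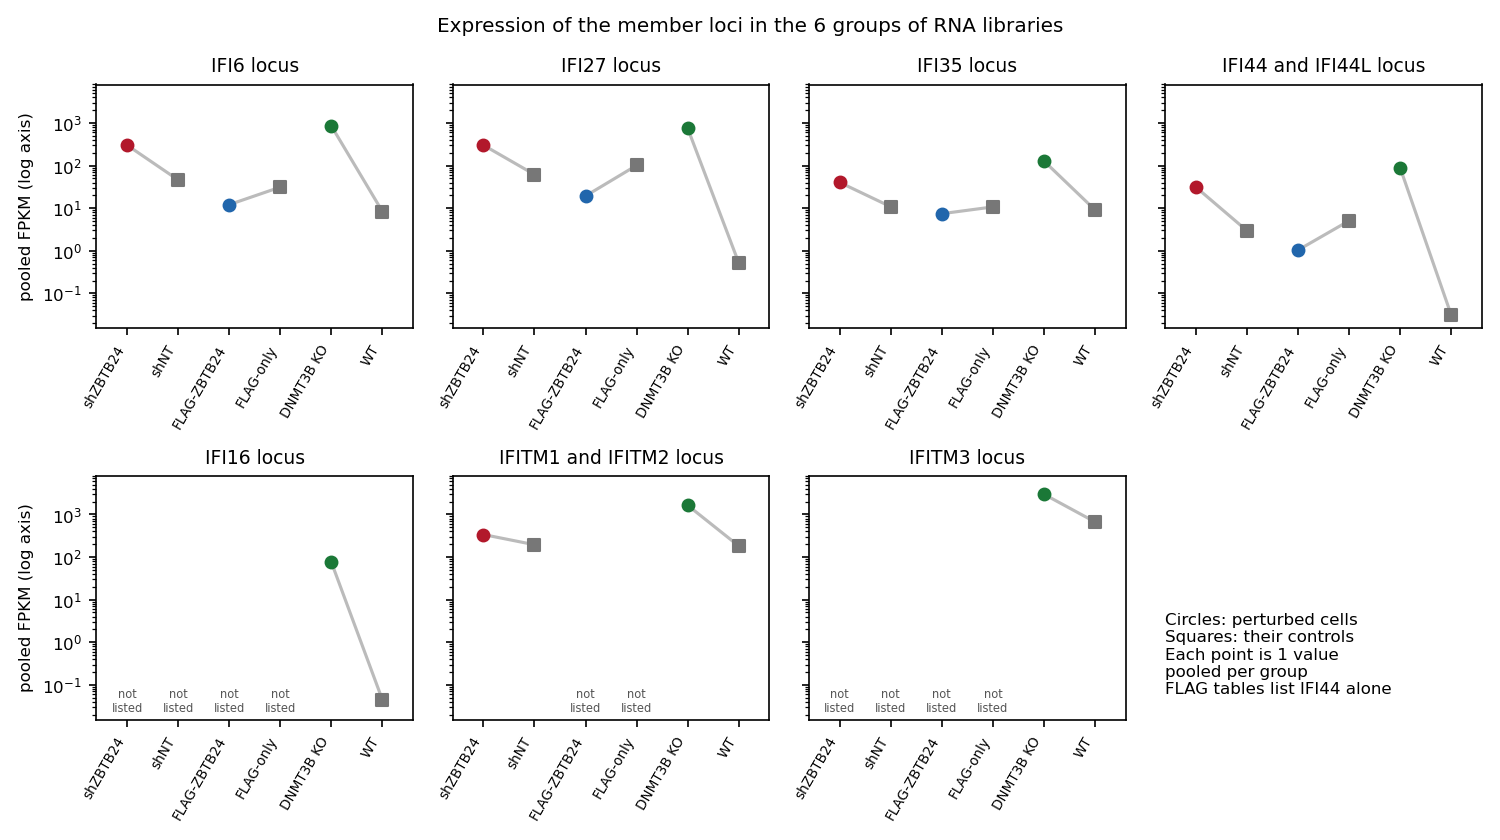
Pooled FPKM (log axis) of each member locus, with 1 point per group and each perturbed group left of its control. IFI6, IFI27 and IFI35 are listed in all 3 tables, and each is higher with shZBTB24, lower with FLAG-ZBTB24 and higher in the DNMT3B knockout than in its own control.

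With FLAG-ZBTB24 the listed members lay on the other side of their control: 4 loci were listed and all 4 were lower, but only IFI27 passed the threshold. Of all 1754 listed loci, 924 were lower. IFI27 fell to 19.3 FPKM with FLAG-ZBTB24, against 101 FPKM with FLAG only, a log2 fold change of -2.39 (q = 0.0192 in the authors' deposited table). It was 1 of 6 loci, 0.342% of the 1754 listed, that fell at this threshold. At an unadjusted p under 0.05, 3 member loci were lower, against 6.44% of the listed loci.

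IFI44, listed here without IFI44L, was at 1.04 FPKM with FLAG-ZBTB24 and 5.09 FPKM with FLAG only in the authors' deposited table (a log2 difference of -2.29, p = 0.00155, q = 0.124). With 1 FPKM added to both values that difference became -1.58. IFI6 was at 12.1 FPKM with FLAG-ZBTB24 and 31.2 FPKM with FLAG only (log2 fold change -1.37, q = 0.429 in the authors' deposited table). IFI35 was at 7.42 FPKM with FLAG-ZBTB24 and 10.7 FPKM with FLAG only, a log2 fold change of -0.53 (q = 0.997), just inside the 0.50 below which the authors' deposited table lists no locus. IFI44L, IFI16 and the 3 IFITM genes were not listed. NMI was again on the side of IFI35, at 1.8 FPKM with FLAG-ZBTB24 and 5.04 FPKM with FLAG only (q = 0.441 in the authors' deposited table).

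In the DNMT3B knockout all 7 member loci, and so all 9 genes, were listed as higher than in wild-type cells. The table under this label lists only loci at least 2-fold higher, so 100% of its 2243 loci share that direction. The lower loci of the same table stand under DNMT3BKOshZB, and over both labels together 66.9% of 3355 loci were higher. With 1 library on each side there is no replicate check, and a q compares the pair of libraries, not the conditions. By that q the locus of IFITM1 and IFITM2 was the one member under 0.05, where 7 of the 2243 loci (0.312%) were, or 0.209% over both labels. The q of the other members lay between 0.126 for IFI44 with IFI44L and 0.692 for IFI16. The median log2 fold change of the 7 loci was 6.67, against 2.12 over all listed loci.

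The members closest to 0 in wild-type cells had the largest fold changes in the authors' deposited table. IFI44 with IFI44L was at 86.9 FPKM in the knockout and 0.0304 FPKM in wild-type cells, a log2 fold change of 11.48 that ranked 4th of 2243. IFI16 (hg19 chr1:158979682-159024945, plus strand) was at 75.9 FPKM in the knockout and 0.0444 FPKM in wild-type cells, and IFI27 was at 753 FPKM in the knockout and 0.521 FPKM in wild-type cells. Their log2 fold changes of 10.74 and 10.50 ranked 12th and 15th in the authors' deposited table. Fold changes over values this low depend on what is added to them: with 1 FPKM on both sides the log2 fold changes became 6.41 for IFI44 with IFI44L, 6.20 for IFI16 and 8.95 for IFI27.

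IFI6 was at 851 FPKM in the knockout and 8.34 FPKM in wild-type cells, 102-fold higher in the authors' deposited table. IFI35 was at 128 FPKM in the knockout and 9.07 FPKM in wild-type cells, 14.1-fold higher. Its wild-type level was near its 10.8 FPKM in shNT cells and 10.7 FPKM in FLAG-only cells.

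The IFITM loci had the smallest fold changes and the highest levels. IFITM3 (hg19 chr11:319673-320914, minus strand), which acts mainly in endosomes, was at 2984 FPKM in the knockout and 668 FPKM in wild-type cells (log2 fold change 2.16). That was the highest knockout level of all 2243 listed loci in the authors' deposited table. IFITM1 with IFITM2 was at 1641 FPKM in the knockout, the 5th highest, and 182 FPKM in wild-type cells (log2 fold change 3.17, q = 0.00636). In the knockout the order of levels per length was IFITM3, IFITM1 with IFITM2, IFI6, IFI27, IFI35, IFI44 with IFI44L, and IFI16. In wild-type cells IFI35 and IFI6 came next after the IFITM loci and IFI27 was far below them. With no spread between libraries, close neighbours such as IFI6 and IFI27 in the knockout cannot be ordered.

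**Figure D3:**
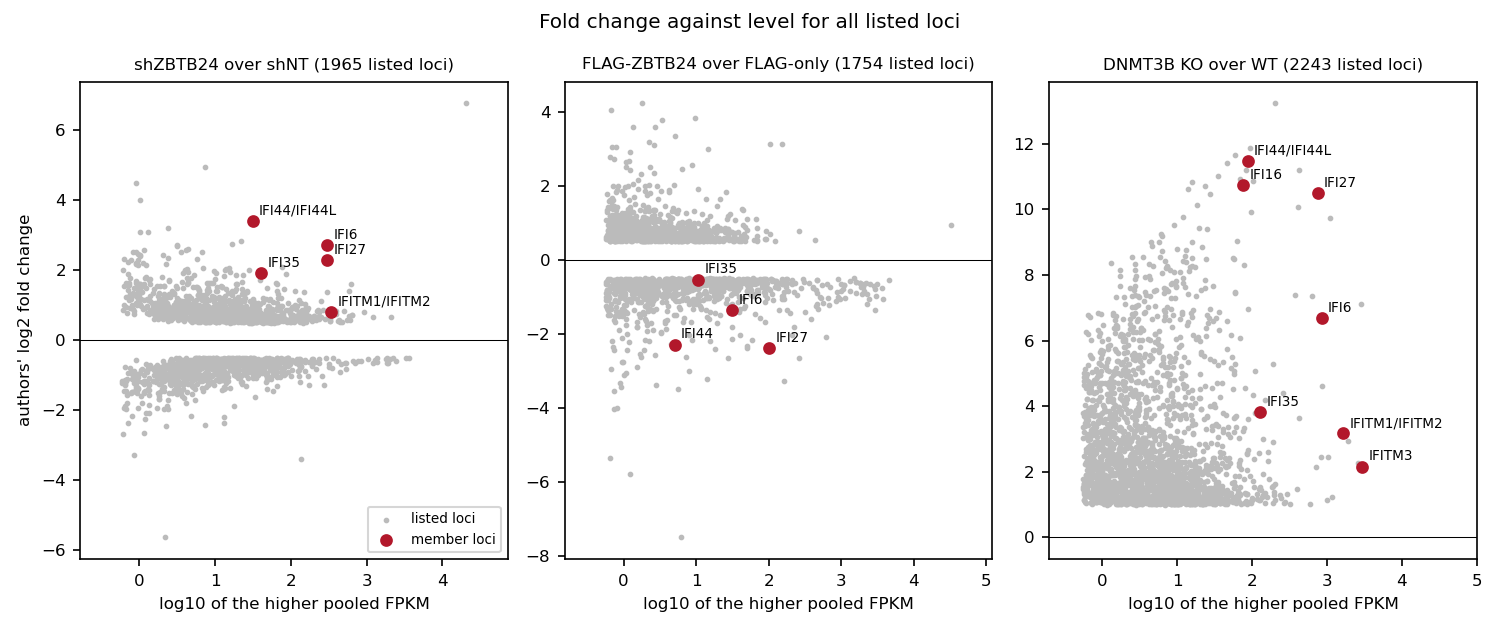
The authors' log2 fold change of every listed locus against log10 of the higher of its 2 pooled FPKM values, with a panel per comparison and member loci in red. The empty bands around 0 are fold changes the tables do not list, and in the knockout panel IFITM3 lies farthest right.

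The 3 controls did not start from the same level. IFI27 was at 61.7 FPKM in shNT cells, 101 FPKM in FLAG-only cells and 0.521 FPKM in wild-type cells, so that the shNT value was 118 times and the FLAG-only value 194 times the wild-type value. Of the 582 other loci listed in both the hairpin and knockout tables, 3 had a higher ratio of shNT over wild type, and of 631 in the FLAG and knockout tables, 1 had a higher ratio of FLAG only over wild type. The locus of IFI44 and IFI44L stood at 96.5 times in shNT over wild type, with 7 of 582 higher, and IFI6 at 5.52 times. IFI35 at 1.19 times and IFITM1 with IFITM2 at 1.07 times were close to level, below the median of the other loci, a log2 ratio of 0.49 (quartiles -0.45 and 1.61).

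These ratios set values of separate deposited tables side by side, and the sources used here do not give whether the tables were normalized together. Between the 2 transduced controls, IFI27, IFI6 and IFI35 in FLAG-only cells were 1.64, 0.678 and 0.997 times their shNT levels, around a median log2 ratio of -0.07 for 362 other loci. The wild-type library is labelled with no hairpin or tag, and the effects of lentivirus, selection, clone and table on these ratios cannot be told apart here. The knockout fold changes of IFI27 and of IFI44 with IFI44L are therefore set against a control far below the other controls. In absolute level, IFI27 was 753 FPKM in the knockout, 302 FPKM in shZBTB24 cells and 19.3 FPKM with FLAG-ZBTB24 in the authors' deposited tables.

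IFI6, IFI27 and IFI35 were listed in all 3 tables, and each was higher with shZBTB24, lower with FLAG-ZBTB24 and higher in the knockout. Of the 104 loci listed in all 3, 32 (30.8%) had that pattern, which includes these 3. Every locus under the knockout label is higher, so the pattern rests on the hairpin and FLAG directions alone. The locus of IFI44 and IFI44L was compared as well, through the FLAG value of IFI44 alone beside values of the joined locus in the other tables. The loci nearest to each member by Euclidean distance of the 3 log2 fold changes, were sought among 101 non-member loci for these 4. IFIT3 (distance 0.749), IFIT1 and BST2 were nearest to IFI6, and OAS1 was nearest to IFI27 (1.49) and to IFI44 with IFI44L (0.71). For both of these members BST2 and IFIT1 came next, at distances from 3.59 to 5.11. The distance was not scaled, so the knockout log2 fold changes, which have the widest range, weigh most in it. Those of OAS1, IFI44 with IFI44L and IFI27 stand on wild-type levels of 0.0249, 0.0304 and 0.521 FPKM. How far these low levels set the likeness was not tested.

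OAS1, which makes the second messenger that activates RNase L, had log2 fold changes of 2.82 with shZBTB24, -2.27 with FLAG-ZBTB24 and 11.88 in the knockout, by the authors' deposited tables. IFI27 had 2.29, -2.39 and 10.50 in the same order. IFI35 was closest to DTX3L (0.401), PARP9 (0.539) and BATF2 (0.667), of which DTX3L and PARP9 encode partners in one ubiquitin ligase complex. IFITM1 with IFITM2, listed in the hairpin and knockout tables only, was closest among 374 loci to TAP1 (0.125), CSF1 (0.163) and UBE2L6 (0.22). The loci compared share their control libraries within each table.

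The other genes of the pathway were taken from lists of 77 genes, ordered by role. With shZBTB24, 38 were listed, 36 of them higher, and 28 rose and 1 fell at q under 0.05 in the authors' deposited table. The median log2 fold change of the 38 was 1.43, against 0.55 over all listed loci. No locus listed there has an absolute log2 fold change under 0.50, so 0.55 lies at the edge of that gap. It is not a typical change over all genes. Of all 1965 listed loci, 1081 were higher, 240 of them at q under 0.05. With FLAG-ZBTB24, 20 were listed, 17 lower and 3 higher, and 0 passed at q under 0.05 in the authors' Cufflinks table, with 5 lower at an unadjusted p under 0.05. Of all 1754 loci listed there, 924 were lower and 830 higher. In the knockout 43 were listed, with a median of 4.01 against 2.12 over all listed loci. All 43 were higher, as was every row under that label. Under DNMT3BKOshZB 1 was listed, IFNE, which was lower than in wild-type cells. IFI30, IFI27L1, IFI27L2, IFITM5, IFITM10 and the IFI16 relatives AIM2, MNDA and PYHIN1 were not listed in any table.

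Of the 9 interferon genes on the list, 1 was listed in each comparison. IFNL1, a type III interferon, was at 1.01 FPKM in shZBTB24 cells and 0.337 FPKM in shNT cells (q = 0.353), and IFNL2 was at 1.89 FPKM in the knockout and 0.203 FPKM in wild-type cells in the authors' deposited tables. IFNE was at 0.78 FPKM with FLAG-ZBTB24 and 0.459 FPKM with FLAG only (q = 0.997). Under DNMT3BKOshZB, IFNE was at 0.0814 FPKM, against 0.788 FPKM in wild-type cells. Of the receptors, IFNLR1 alone was listed, in the hairpin table, at 4.15 FPKM in shZBTB24 cells and 6.21 FPKM in shNT cells (q = 0.246 in the authors' deposited table).

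Downstream of the receptors, the transcription factor genes IRF9 and IRF7 rose with shZBTB24. IRF9 was at 30.4 FPKM in shZBTB24 cells and 16.4 FPKM in shNT cells, and IRF7 was at 38.1 FPKM in shZBTB24 cells and 20.6 FPKM in shNT cells. Each had a log2 fold change of 0.89 in the authors' deposited table. The RNA sensors IFIH1 (1.87) and DDX58 (1.38) rose as well. Of the inhibitors, USP18, which blocks the type I receptor, rose to 7.18 FPKM in shZBTB24 cells against 3.02 FPKM in shNT cells. SOCS3, an inhibitor of cytokine receptors, fell to 4.55 FPKM in shZBTB24 cells against 9.2 FPKM in shNT cells (q = 0.0206 in the authors' deposited table).

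Among 33 further interferon-stimulated genes, 27 were listed with shZBTB24, all higher, and 21 rose past the threshold, led by RSAD2 (log2 fold change 4.01), OAS1 (2.82) and SAMD9 (2.75) in the authors' deposited table. With FLAG-ZBTB24, 12 were listed and 11 were lower, 0 of them at q under 0.05 and 2 at an unadjusted p under 0.05 in the authors' Cufflinks table. In the knockout 30 were listed, with a median log2 fold change of 4.30. OAS3, at 150 FPKM in the knockout and 8.29 FPKM in wild-type cells, and ISG15, at 867 FPKM in the knockout and 35.1 FPKM in wild-type cells, had q under 0.05 in the authors' deposited table. Of the signalling genes, STAT2 had a knockout log2 fold change of 1.41 and IRF7 one of 5.06 in the authors' deposited table.

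**Figure D4:**
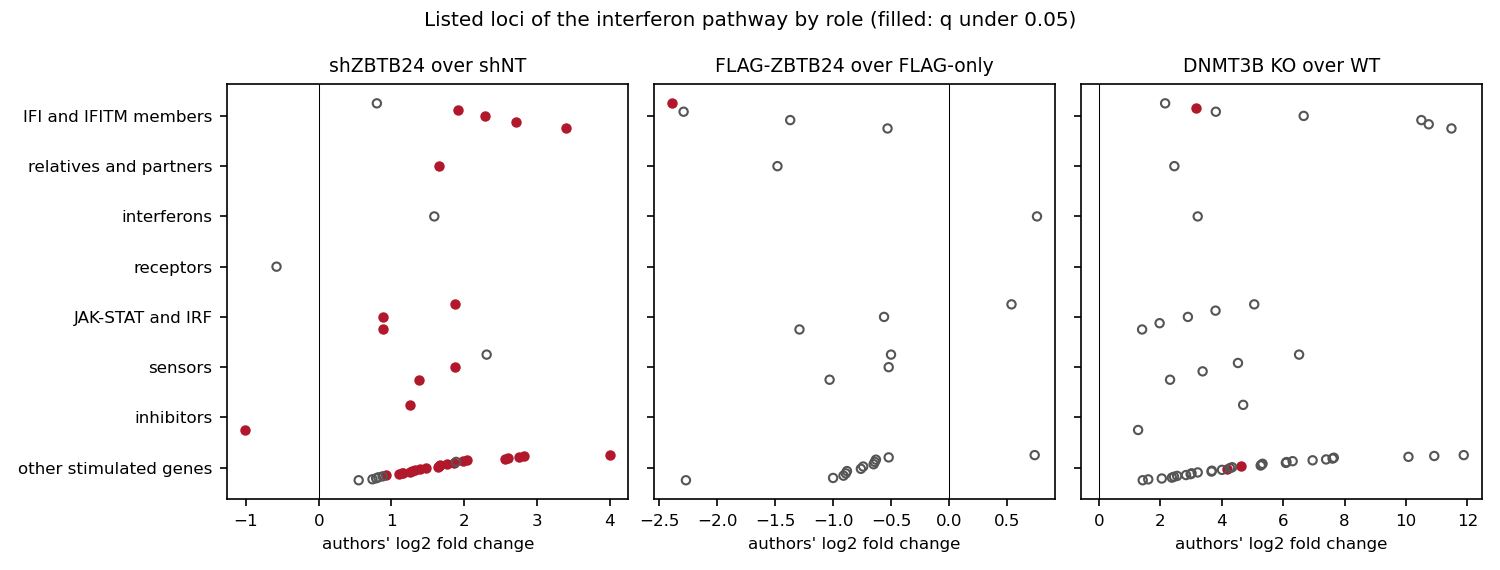
The authors' log2 fold change of each listed locus, by role in the interferon pathway (rows) and comparison (panels with their own scales). Filled points have q under 0.05, which holds for 4 of 5 member loci with shZBTB24, 1 of 4 with FLAG-ZBTB24 and 1 of 7 in the knockout.

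None of the 6 blood cell markers was listed in any table. Of the 4 fibroblast and muscle markers, VIM was listed at 629 FPKM in the knockout and 3.8 FPKM in wild-type cells, and at 0.716 FPKM with FLAG-ZBTB24 and 0.487 FPKM with FLAG only in the authors' deposited tables. COL1A1 and COL1A2 were not listed. ACTA2 was listed only under DNMT3BKOshZB, at 1.94 FPKM against 5.9 FPKM in wild-type cells (log2 fold change -1.60), on the other side from VIM. Of the 8 intestinal epithelial markers, CDH1 fell to 23.2 FPKM in shZBTB24 cells against 46.3 FPKM in shNT cells, and CDX2 rose to 18.8 FPKM in shZBTB24 cells against 6.9 FPKM in shNT cells (both q = 0.00493 in the authors' deposited table). With FLAG-ZBTB24, CDH1 was at 42.5 FPKM against 29.2 FPKM with FLAG only (q = 0.967), and KRT20 was at 1.24 FPKM against 0.455 FPKM with FLAG only (q = 0.787 in the authors' deposited table). KRT20 was also at 1.49 FPKM in the knockout and 0.558 FPKM in wild-type cells, while 5 other epithelial markers were lower than in wild-type cells under DNMT3BKOshZB. The part of these differences in the values of the IFI and IFITM genes was not tested.

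None of the 9 genes had a ZBTB24 or DNMT3B peak at its promoter or in its body. A promoter peak was one with its midpoint within 1000 bp of an annotated start. ZBTB24 promoter peaks stood at 982 of the 26281 genes (3.74%), and ZBTB24 peaks at promoter or body at 2233 (8.5%). DNMT3B peaks stood at promoter or body of 5864 genes (22.3%), so a count of 0 among 9 genes says little beside shares of this size. The merged lists held 6173 ZBTB24 and 15909 DNMT3B peaks with none per line, and each peak has 1 score from the authors.

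ZBTB24 peaks nonetheless lay close to 2 member loci. The nearest to IFI44L was centred 2439 bp upstream of the gene, at hg19 chr1:79083428-79083829, and it was 31849 bp from IFI44. The nearest to IFI6 was centred 2535 bp beyond the 3′ end of the gene, at hg19 chr1:27989968-27990106. Their authors' scores were 5.49 and 6.66, below the list's median of 8.26. A ZBTB24 peak within 10 kb was found for these 2 genes, against 13.6% of all genes, a distance chosen after seeing the data.

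IFI16 had its nearest ZBTB24 peak 11161 bp upstream, at hg19 chr1:158968460-158968582. IFI27 had its nearest at 84654 bp and IFI35 at 326922 bp, and the 3 IFITM genes shared 1 peak, at hg19 chr11:417163-417456, between 96395 and 107899 bp away. The nearest DNMT3B peaks were farther than those of ZBTB24 for IFI6, IFI44, IFI44L and IFI16, and nearer for the other 5 genes. The distance to the nearest DNMT3B peak was shortest for IFI35, at 21471 bp, and longest for IFI16, at 936091 bp.

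**Figure D5:**
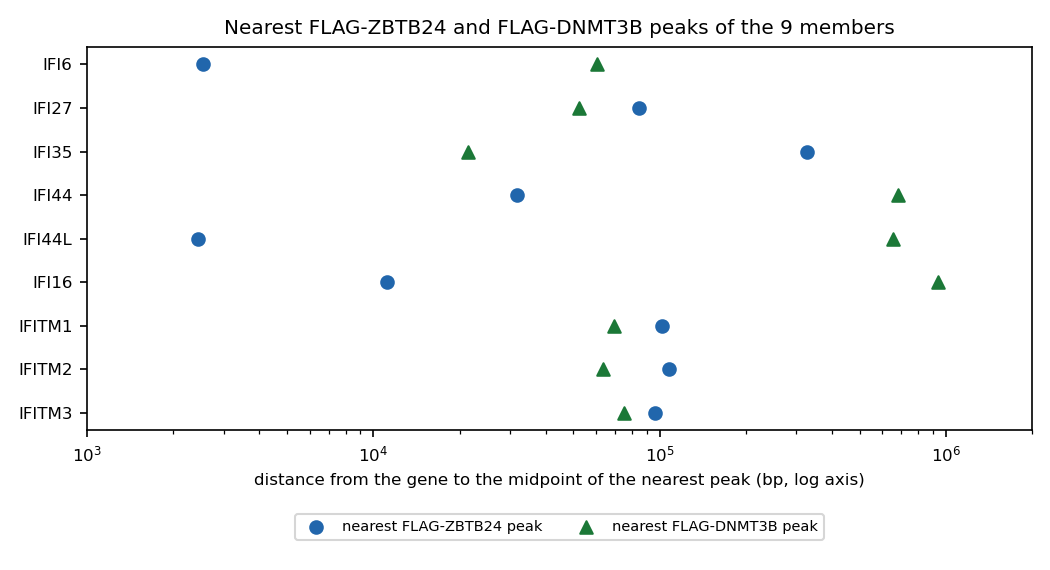
Distance in bp (log axis) from each of the 9 genes to the midpoint of its nearest peak in the merged FLAG-ZBTB24 list (circles) and FLAG-DNMT3B list (triangles). IFI44L at 2439 bp and IFI6 at 2535 bp are the shortest distances, both to a ZBTB24 peak.

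Of the 77 other pathway genes, 4 had a ZBTB24 promoter peak: OAS3, EPSTI1, the RNA sensor gene IFIH1 and IFNG. The other 73, among them OAS1, IFIT3, IFIT1, BST2, DTX3L and PARP9, had none, as the members did. The 4 make up 5.19% of the list, near the share of all genes. None of the 77 had a DNMT3B promoter peak, for which no share over all genes was computed. DNMT3B peaks at promoter or body stood at 24 of the 77, beside 22.3% of all 26281 genes. Whether the members differ in this from the other pathway genes was not tested.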

How the data were processed

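Expression was measured by RNA-seq in 12 libraries and binding by FLAG ChIP-seq in 7 libraries with 7 inputs. Per the submitters' processing notes, HISAT2, StringTie, Cufflinks and MACS2 were run on hg19, with versions not given in those notes. The authors deposited pooled FPKM values, 1 per group, with a log2 fold change of perturbed over control. Each p-value and q-value is as the authors deposited it. The deposited merged peak lists give 1 score per peak, of a kind that the labels do not state. Nothing in the labels says that hairpin replicates came from separate cultures, so p-values may measure technical spread only.

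Loci were called at q under 0.05, or at 2-fold in the unreplicated knockout. No test of differences was run, since no table gives values per library. The members and gene lists were chosen with earlier results of these data known. All 9 members, up to 3 genes past q under 0.05 per role, all listed ligands, receptors and relatives, and the 3 loci nearest each member were named. Peaks were assigned by midpoint to the authors' assembled annotation. RefSeq sequences (GRCh38.p14) were matched by symbol, and no hg19 coordinate was used with them. Counting steps were tested on simulated data. Python 3.11.15, pandas 2.3.3 and numpy 2.4.6 were used. Rows labelled DNMT3BKOshZB were kept apart.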

Additional observations from a re-analysis of the deposited data

How the results depend on the processing

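The count of 4 member loci that rose with shZBTB24 was 4 or 5 under each alternative run. The alternatives were q under 0.01, unadjusted p under 0.05, at least 1 FPKM, at least 2-fold, and loci with member symbols alone. All 4 loci have q = 0.00493 in the authors' deposited table, rises of at least 3.75-fold and no other symbols, so these settings could hardly change the count. No locus listed there has p above 0.0549, so the unadjusted threshold is close to the limit of listing itself. With FLAG-ZBTB24 the count of 1 became 0 at q under 0.01 and 3 at an unadjusted p under 0.05, and was 1 under the others. The knockout count of 7 became 1 when the authors' q under 0.05 was required, and was 7 under the others, 4-fold included. The 0 members with ZBTB24 promoter peaks became 2 within 10 kb, a window chosen after seeing the data, and stayed 0 for DNMT3B and for windows of 500 and 2000 bp, the peaks at or above the median score, and any overlapping base. Thresholds and windows differ by construction, and no other cause was tested. With 0.1 FPKM added to both sides, 14 of 16 member fold changes moved by at most 1.5-fold and 2 moved further, and with 1 FPKM 12 and 4. These 4 were IFI44 with FLAG-ZBTB24 (-1.58 in place of -2.29) and, in the knockout, IFI16, IFI27 and IFI44 with IFI44L. The wild-type values of those knockout loci are low and of unknown depth. The same amount added to both values cannot change which is higher, so these settings do not test direction. No paired analysis was possible because the tables hold pooled values with no replicate columns, and for the same reason no replicate could be left out.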

Other observations

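Of the genes within 100 kb of the members, the tables list a few, on either side of their controls and none past the threshold, and those described here were picked after their values were seen. RND2, 10782 bp from IFI35, was listed in all 3 comparisons. It was at 0.628 FPKM in shZBTB24 cells and 1.33 FPKM in shNT cells (log2 fold change -1.08, q = 0.0719), and at 0.717 FPKM with FLAG-ZBTB24 and 0.48 FPKM with FLAG only (q = 0.997) in the authors' deposited tables. In the knockout it was at 3.48 FPKM, against 0.429 FPKM in wild-type cells (q = 0.55 in the authors' deposited table). RND2 thus lay on the opposite side of its control from IFI35 in the hairpin and FLAG tables, where neither of its values passed the threshold, and on the same side in the knockout.

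PPP4R4, 57613 bp from IFI27, was at 5.15 FPKM with FLAG-ZBTB24 and 2.82 FPKM with FLAG only (q = 0.967 in the authors' deposited table), on the other side of its control from IFI27. RPL27, a ribosomal protein gene 3771 bp from IFI35, was at 1412 FPKM with FLAG-ZBTB24 and 2180 FPKM with FLAG only (q = 0.945 in the authors' deposited table). SIGIRR, an inhibitor of interleukin-1 and Toll-like receptor signalling 18433 bp from IFITM3, was at 40.9 FPKM in the knockout and 19.3 FPKM in wild-type cells (q = 0.984 in the authors' deposited table). The IFI27 relatives IFI27L1 and IFI27L2 and the IFI16 relatives AIM2 and PYHIN1, which lie beside those members, were not listed in any table.

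Under the label DNMT3BKOshZB, all 1112 rows were lower than in wild-type cells, and 5 of the 8 epithelial markers were among them. CDH1 was at 6.1 FPKM, against 27.3 FPKM in wild-type cells, and EPCAM at 76.6 FPKM, against 179 FPKM, in the authors' deposited table. KRT8, KRT18 and CDX2 were lower in the same rows, and so was ACTA2. Of the 195 p-values found under both labels, 194 carried the same q under both. The labels do not say whether these rows are the lower part of the knockout comparison.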
